A study of Mus musculus with 2 samples.

Results

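Ribosome-protected fragments of 9 genes of glycine and GABA inhibitory transmission were compared between spinal cords of GarsC201R/+ mice (HET) and wild-type mice (WT). The genes were chosen by their Ensembl identifiers and are 9 of the 12530 mouse genes listed. They are Slc6a5, Slc6a9, Slc32a1, Gad1, Gad2, Glra1, Glra3, Glrb and Gphn. All of them had reads in both libraries and passed the minimum of 100 reads in both libraries together. HET animals carry the C201R missense allele of Gars on a single chromosome copy, and WT animals carry none. The gene's product is glycyl-tRNA synthetase, which charges tRNA with glycine. There were 2 libraries, 1 per genotype, each from the pooled lysates of 3 animals. The strain, sex and age of the animals and any shared treatment are not given in the labels used here.

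Glycine and GABA are the fast inhibitory transmitters of the spinal cord, and many spinal interneurons release both. GABA is made by the glutamate decarboxylases, and a shared vesicular transporter loads either transmitter into synaptic vesicles. Glycine opens chloride channels built of alpha and beta subunits, which gephyrin anchors under the synapse, and plasma membrane transporters clear glycine from the cleft.

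The listed gene reads summed to 3491159 in HET and 7770935 in WT, so the WT library was 2.23-fold deeper. With 1 library per genotype there was no replicate check, no error between animals could be given and no p-value was computed. The 95% intervals below cover counting error only. Libraries were scaled to each other with TMM (a trimmed mean of gene ratios), and a log2 ratio is HET over WT throughout. A gene was called higher or lower in HET at a ratio of 1.5-fold or more with a counting interval that left out equal levels. For comparison, genes were ordered by reads into 10 equal groups, called read groups here. These are read totals per gene, without matched RNA libraries. Differences in the number of cells of a type, in RNA per cell and in ribosomes per RNA therefore cannot be told apart. Protein output was not measured.

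Of the 9 genes, 1 was called, Glra3, which was lower in HET. By the same rule 19.3% of the 9726 genes with 100 or more reads were called, 8.14% higher and 11.2% lower. The share of called genes, 11.1%, was thus not above that of all genes. At any fold, the interval lay above equal levels for 3 of the 9 genes (Slc6a9, Slc32a1 and Glrb) and below for 5 (Slc6a5, Gad1, Gad2, Glra1 and Glra3). Gphn had an interval that included equal levels. Among all tested genes the interval excluded equal levels for 51.9%, above for 23.7% and below for 28.2%. That share rises with reads. It was 77.8% in the best covered read group, with 2152 reads or more, where 6 of the 9 genes lie. In that group the interval lay above equal levels for 29.3% of genes and below for 48.5%. The median log2 ratio was -0.17 over the 9 genes, -0.03 over all tested genes and -0.08 over the best covered read group. Together the 9 genes took 0.348% of gene reads in HET (95% Wilson interval 0.342% to 0.354%) and 0.323% in WT (0.319% to 0.327%). These shares are of total gene reads, without TMM. After TMM scaling the log2 ratio of the summed reads was 0.06 (0.02 to 0.09).

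**Figure D1:**
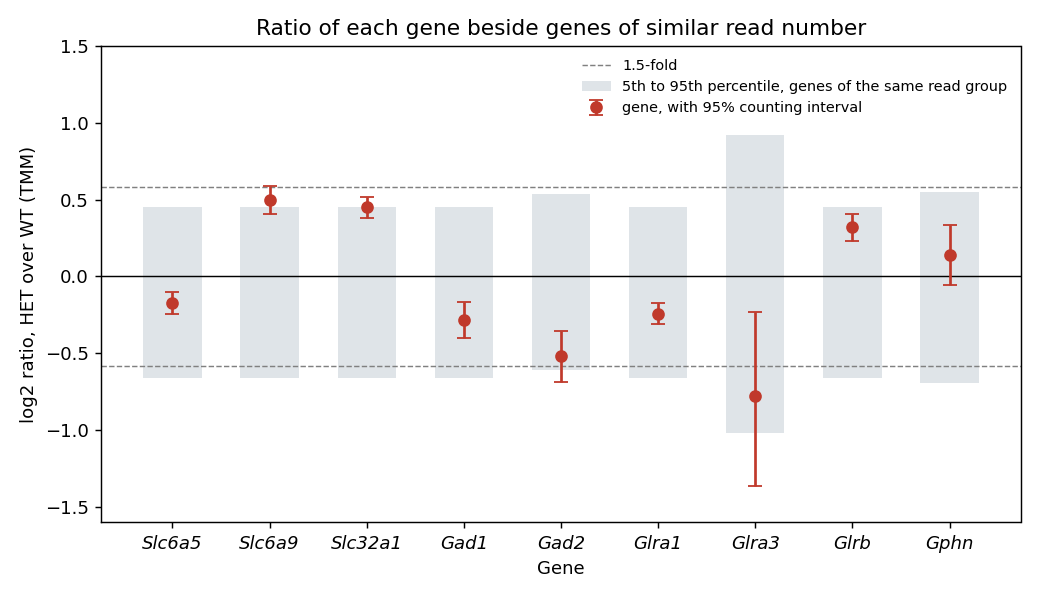
Points are log2 ratios, HET over WT, of the 9 genes after TMM scaling, with 95% counting intervals. Grey bars span the 5th to 95th percentile of genes in the same read group and dashed lines mark 1.5-fold. Slc6a9 at 0.50 lies just above its bar, Slc32a1 at 0.45 is at the edge of its own, and the other 7 genes lie inside theirs.

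The 2 plasma membrane glycine transporters differed in opposite directions. Slc6a5 encodes GlyT2, the transporter of glycinergic terminals that refills them with glycine (ENSMUSG00000039728, chr7:49906984-49963864 in RefSeq GRCm38.p6). It had 2191 reads in HET (95% Poisson interval 2100 to 2285) and 5289 in WT (5147 to 5434). Its deposited RPKM was 88.1 in HET and 96.1 in WT. After scaling the ratio was 0.888-fold, a log2 ratio of -0.17 (-0.24 to -0.10). The difference was small beside that of other well covered genes, since 39.3% of the 973 genes in its read group were as low or lower.

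Slc6a9 encodes GlyT1, the largely glial glycine transporter that keeps extracellular glycine low (ENSMUSG00000028542, chr4:117835258-117869305). It had 1619 reads in HET (1541 to 1700) and 2459 in WT (2363 to 2558). The RPKM was 132.2 in HET and 90.7 in WT. This was the highest ratio of the 9 genes, 1.41-fold, with a log2 ratio of 0.50 (0.41 to 0.59). In its read group 30 of 973 genes, itself included, were as high or higher (3.08%). The levels of astrocyte markers, which would show whether glial genes as a class were higher, were not analysed here because the identifiers of those genes are not paired with symbols.

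The balance between both transporters does not depend on how the libraries are scaled. Per length, Slc6a5 stood at 0.666 of Slc6a9 in HET (0.625 to 0.711) and at 1.06 of it in WT (1.01 to 1.11). On this scale Slc6a5 was therefore below Slc6a9 in HET and slightly above it in WT. By reads Slc6a5 was above Slc6a9 in both libraries (2191 against 1619 in HET, 5289 against 2459 in WT). The change of order thus depends on the lengths used (7065 nt and 3479 nt), and the intervals do not cover error in them. The HET ratio over the WT ratio, which does not depend on the lengths, was 0.629 (0.580 to 0.682).

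Slc32a1 encodes VGAT (also VIAAT), which loads GABA and glycine into vesicles and marks inhibitory terminals of either kind (ENSMUSG00000037771, chr2:158607260-158615747). It had 2696 reads in HET (2595 to 2800) and 4235 in WT (4108 to 4365). The RPKM was 273.8 in HET and 194.4 in WT. The level was 1.37-fold higher in HET, with a log2 ratio of 0.45 (0.38 to 0.52). Of the 973 genes in its read group, 48 were as high or higher (4.93%). By RPKM it ranked 176 of 12530 genes in HET and 286 in WT.

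Gad1 and Gad2, which make the GABA that Slc32a1 loads, were both on the other side of equal levels. Gad1 encodes GAD67, the decarboxylase spread through the cell body and terminals (ENSMUSG00000070880, chr2:70561303-70602014). It had 804 reads in HET (749 to 862) and 2098 in WT (2009 to 2190), with an RPKM of 68.1 in HET and 80.3 in WT. The log2 ratio was -0.28 (-0.40 to -0.17).

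Gad2 encodes GAD65, the decarboxylase bound to vesicles at terminals (ENSMUSG00000026787, chr2:22621015-22693877). It had 388 reads in HET (350 to 429) and 1194 in WT (1127 to 1264), with an RPKM of 19.2 in HET and 26.7 in WT. The ratio was 0.697-fold, a log2 ratio of -0.52 (-0.69 to -0.35), short of the 1.5-fold limit. In its read group 8.02% of 972 genes were as low or lower. For Gad1 the same share was 26.4% of 973 genes.

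Gad1 exceeded Gad2 per length in both libraries. The ratio was 3.55 in HET (3.14 to 4.02) and 3.01 in WT (2.80 to 3.23). The HET ratio over the WT ratio was 1.18 (1.02 to 1.36), and at 99% its interval included equal ratios. Slc32a1 stood further above both decarboxylases in HET. Against Gad1 its ratio per length was 4.02 in HET (3.72 to 4.36) and 2.42 in WT (2.30 to 2.55). Against Gad2 it was 14.3 in HET (12.8 to 15.9) and 7.28 in WT (6.83 to 7.77). These last comparisons were chosen after the values had been seen.

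The RefSeq promoter windows of these 3 genes, all on chromosome 2, are shown because decarboxylases and transporter lay on opposite sides of equal levels. Each holds 300 bases of the plus strand in GRCm38.p6, at the start site used in the RefSeq promoter table. All of these windows lie inside the gene spans given above and do not reach the outer 5′ end of the span. The windows are chr2:158610508-158610807 for Slc32a1, chr2:70561879-70562178 for Gad1 and chr2:22622077-22622376 for Gad2. Capitals mark matches on either strand to 3 motifs: the TATA box TATAAA, the GC box written as GGGCGG, and the CCAAT box by those letters.
Slc32a1: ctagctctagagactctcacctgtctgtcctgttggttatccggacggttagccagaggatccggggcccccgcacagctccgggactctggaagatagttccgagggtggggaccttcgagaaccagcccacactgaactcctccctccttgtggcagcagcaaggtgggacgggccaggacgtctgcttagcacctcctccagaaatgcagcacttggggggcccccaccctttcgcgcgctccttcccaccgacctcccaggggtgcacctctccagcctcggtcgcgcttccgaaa
Gad1: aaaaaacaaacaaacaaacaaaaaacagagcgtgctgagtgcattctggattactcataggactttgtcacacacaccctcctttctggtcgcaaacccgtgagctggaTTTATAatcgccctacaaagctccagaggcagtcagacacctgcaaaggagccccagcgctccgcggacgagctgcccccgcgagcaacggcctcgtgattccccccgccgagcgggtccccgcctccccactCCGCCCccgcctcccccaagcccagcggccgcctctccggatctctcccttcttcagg
Gad2: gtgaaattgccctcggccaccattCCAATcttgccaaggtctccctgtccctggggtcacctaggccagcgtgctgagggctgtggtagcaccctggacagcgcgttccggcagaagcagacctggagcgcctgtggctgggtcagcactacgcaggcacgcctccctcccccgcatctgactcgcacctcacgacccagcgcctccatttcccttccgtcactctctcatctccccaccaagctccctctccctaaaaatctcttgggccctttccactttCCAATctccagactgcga
The Slc32a1 window holds none of these motifs. Gad1 has TATAAA at position 110 and GGGCGG at position 243 of the window, both on the minus strand, and Gad2 has CCAAT at positions 25 and 283. Relative to the start site, with upstream negative, the Gad1 matches begin at -141 and -8. Those of Gad2 begin at -226 and 32, the second of them downstream of the start site. Among the 32851 promoter windows of the table, 13.6% hold TATAAA, 35.7% GGGCGG and 37.4% CCAAT. The GC content was 63.3% for Slc32a1, 60.0% for Gad1 and 61.3% for Gad2, and the median over all windows was 52.7%. A match is a description of the letters, and ribosome reads do not measure promoter activity.

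Glycine receptor subunits differed from each other. Glra1 encodes the alpha1 subunit, the main ligand-binding subunit of adult spinal cord, mutated in human startle disease (ENSMUSG00000000263, chr11:55514239-55608198). It had 2440 reads in HET (2344 to 2539) and 6193 in WT (6040 to 6349). The RPKM was 290.0 in HET and 332.6 in WT, the highest of the 9 genes in both libraries. Its log2 ratio was -0.24 (-0.31 to -0.18), and 31.6% of the 973 genes in its read group were as low or lower.

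Glrb encodes the beta subunit, which joins alpha subunits in the channel and binds gephyrin (ENSMUSG00000028020, chr3:80843598-80913660). It had 1653 reads in HET (1574 to 1735) and 2840 in WT (2736 to 2946). The RPKM was 155.0 in HET and 120.4 in WT. The ratio was 1.25-fold, a log2 ratio of 0.32 (0.23 to 0.41). As high or higher were 10.2% of the 973 genes in its read group.

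The alpha1 to beta balance was accordingly narrower in HET. Per length, Glra1 stood at 1.87 times Glrb in HET (1.76 to 1.99) and at 2.76 times in WT (2.64 to 2.89). The HET ratio over the WT ratio was 0.677 (0.627 to 0.731), which no scaling between libraries can move. Whether channels of another composition were made was not measured.

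Glra3 encodes the alpha3 subunit, found in the superficial dorsal horn where it takes part in the control of pain signals (ENSMUSG00000038257, chr8:55940418-56130070). It was the least covered of the 9 genes, with 35 reads in HET (24.4 to 48.7) and 129 in WT (108 to 153). The RPKM was 6.75 in HET and 11.2 in WT. The log2 ratio was -0.78, or 0.584-fold, with a wide interval (-1.36 to -0.23). Of the 973 genes with similar reads 11.2% were as low or lower, so a ratio of this size was common at this depth. Glra3 stood at 0.0233 of Glra1 per length in HET (0.0162 to 0.0324) and at 0.0338 in WT (0.0281 to 0.0402). The HET ratio over the WT ratio, 0.689, had an interval that included equal ratios (0.458 to 1.01). A fall of Glra3 beyond that of Glra1 was thus not detectable at this depth. When WT reads were thinned to the HET depth, Glra3 had 35 reads in HET and 44 in WT, below the minimum, and its log2 ratio was -0.37 (-1.06 to 0.30).

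Gphn encodes gephyrin, the scaffold under glycine and GABA receptors, which also serves in molybdenum cofactor synthesis outside synapses (ENSMUSG00000047454, chr12:78217325-78684772). It had 322 reads in HET (288 to 359) and 626 in WT (578 to 677), with an RPKM of 25.6 in HET and 22.5 in WT. Its log2 ratio was 0.14 (-0.06 to 0.34), so no difference was detectable beyond counting error. Per length Gad2 was below Gphn in HET, at 0.749 of it (0.644 to 0.871), and above it in WT, at 1.19 (1.08 to 1.31). By reads Gad2 was above Gphn in both libraries (388 against 322 in HET, 1194 against 626 in WT). The change of order thus depends on the lengths used. This pair was not among the planned comparisons.

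**Figure D2:**
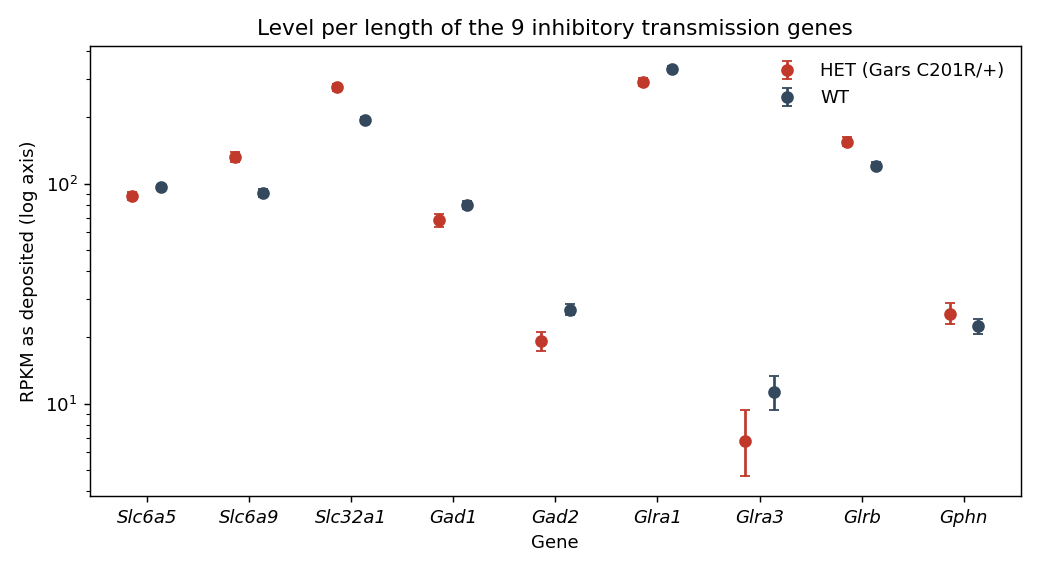
Deposited RPKM of the 9 genes (log axis), HET left and WT right for each gene, with 95% Poisson intervals. Glra1 and Slc32a1 are highest and Glra3 lowest in both libraries. Slc6a9, Slc32a1, Glrb and Gphn are higher in HET by RPKM, and the other 5 genes are lower.

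Levels per length ran from 6.75 to 290.0 RPKM in HET and from 11.2 to 332.6 RPKM in WT. The median of all listed genes was 8.63 RPKM in HET and 8.40 in WT. In both libraries Glra1, Slc32a1 and Glrb led in that order, Gad1 was the sixth and Glra3 was last. Slc6a9 ranked above Slc6a5 in HET and below it in WT, and Gphn ranked above Gad2 in HET and below it in WT. Both changes of order were seen per length and not by reads. By reads, Slc32a1 was above Glra1 in HET (2696 against 2440) and below it in WT (4235 against 6193). Slc32a1 was likewise above Slc6a5 in HET (2191 reads) and below it in WT (5289 reads). The shared lead of Glra1 over Slc32a1 thus holds per length only. All 8 neighbouring steps in the order per length exceeded counting error in either library, and the intervals do not cover error in the lengths. The narrowest step in HET was Slc32a1 at 0.944 of Glra1 (0.893 to 0.998). The lengths behind these RPKM values run from 1474 nt for Glra3 to 7065 nt for Slc6a5. Over all genes 33.7% of the lengths are multiples of 3, as for lengths that hold more than coding sequence. Ribosomes occupy coding sequence, so long untranslated parts lower a gene's RPKM. Ratios of HET over WT for the same gene do not depend on the length.

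**Figure D3:**
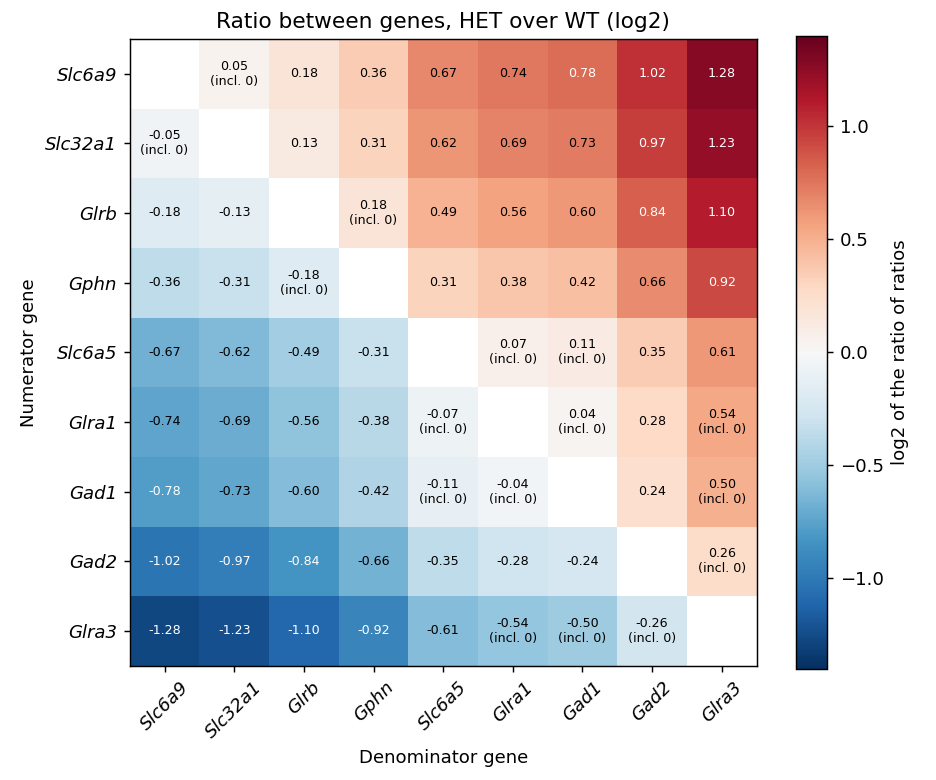
Each cell is the ratio of the row gene to the column gene in HET over that in WT, on the log2 scale, for the 36 pairs of the 9 genes. Genes run from the highest to the lowest ratio. Cells marked incl. 0 have a 95% counting interval that includes equal ratios, as 8 pairs do.

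The 36 pairwise balances are independent of the scaling. For 28 of them the counting interval excluded equal ratios, and for 16 the difference reached 1.5-fold. The same shares over pairs of other genes were not computed, and intervals that exclude equal levels are common among single genes of this depth (77.8% in the best covered read group). The counts therefore only describe these 9 genes. The widest was Slc6a9 to Glra3, which was 2.43 times as high in HET as in WT (1.65 to 3.65). The intervals included equal ratios for Slc6a9 with Slc32a1, Glrb with Gphn, Slc6a5 with Gad1 and with Glra1, Gad1 with Glra1, and Glra3 with Gad1, Gad2 and Glra1. Members of the pairs share libraries and genes, so the 36 values are not separate observations. In the best covered read group, the robust SD of the log2 ratio over genes was 0.32. How much of that spread lies between any pair of spinal cord libraries cannot be told apart from genotype.

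**Figure D4:**
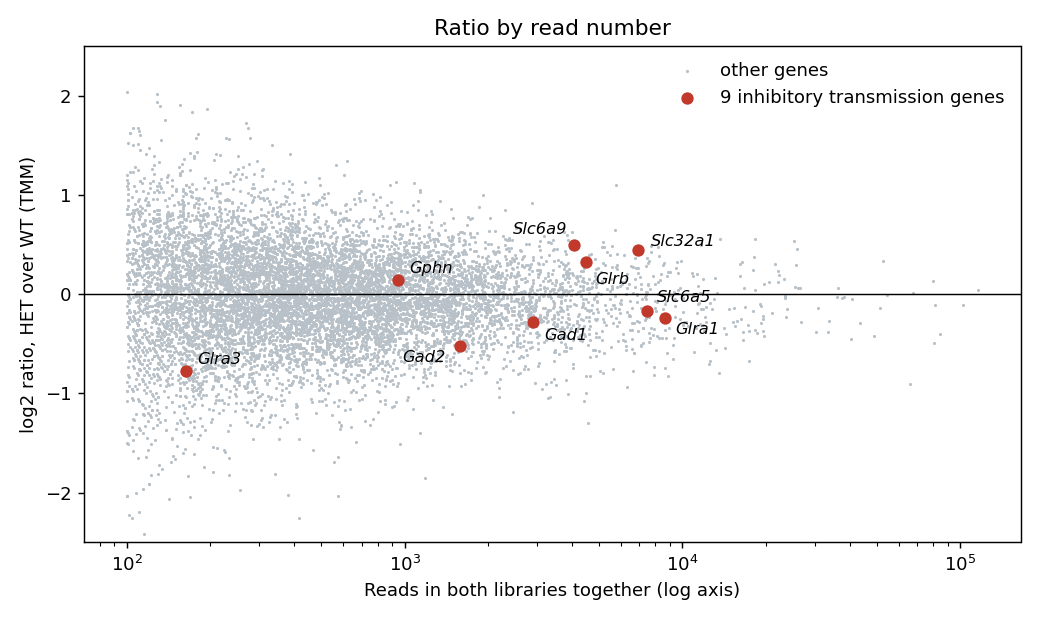
The log2 ratio, HET over WT, is drawn against reads in both libraries together (log axis) for genes with 100 or more reads, with the 9 genes in red. The 9 points lie within the cloud of genes of similar reads. A further 11 genes lie beyond the drawn range of 2.5 in either direction.

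In the RefSeq annotation, another gene overlaps the span of 8 of the 9 genes, Slc6a5 being the exception. For Slc6a9 the overlap, with Ccdc24, lies only at the edge of the span (117869255-117869305). Whole spans were compared, introns included, so an overlap need not hold counted sequence. The overlapping genes include the long noncoding RNAs Gad1os over the 5′ end of the Gad1 span and Gm14204 over that of the Slc32a1 span. The Gad1os overlap (70561303-70563357) runs past the promoter window of Gad1. By contrast, the Gm14204 overlap (158607260-158610723) ends inside the promoter window of Slc32a1. The strand setting of the authors' counting is not given in the sources used here, so reads of such overlapping genes could not be separated.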

How the data were processed

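Per the labels' protocols, spinal cord lysates of 3 animals per genotype were pooled and RNase I-protected fragments were made into 1 library each. Per the submitters' processing notes, the tools were Bowtie 1.2.2 and HTSeq 0.9.1 and the build was GRCm38. The sources used here do not give the settings, the annotation release, the strand setting or which part of a gene was counted. Per the file headers, the authors deposited raw read counts and RPKM values per gene. RPKM equals reads per length and per read of a fixed total, 3520348 in HET and 7790126 in WT, with whole-number lengths.

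The 18 ERCC spike-ins were left out, and 12530 genes were scaled with TMM (edgeR 4.0.16, R 4.3.3). Log2 ratios have a prior count of 0.5 and exact conditional binomial 95% intervals. Counts have exact Poisson intervals and shares Wilson intervals. Balances between genes used reads per length with exact conditional intervals of the odds ratio (scipy 1.17.1). Reads may not be independent molecules, so intervals cover counting error only. Genes were called at 100 or more reads, an interval excluding equal levels and at least 1.5-fold. For comparison, genes were ordered by reads into 10 equal groups. The calling rule and the odds ratio interval were tested on simulated data. The simulated reads held counting error only, so this test cannot show how the rule fares with differences between animals or libraries.

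Symbols of the 9 genes were given with their identifiers. None of the 12530 identifiers could be matched to the reference table of 49997 RefSeq genes (GRCm38.p6), which was joined by symbol for the 9 genes only. The planned lists of other inhibitory genes and cell type markers and the tissue check by markers were therefore not analysed here. Glycine content of the proteins was not analysed here either, as no protein sequences were used. All 9 genes are named by rule, and the genes and lists were chosen with earlier results of these data known. Promoter sequences are from RefSeq. Alternatives were other scalings (including DESeq2 1.42.0), prior counts, read minimums, fold limits, intervals and thinning of WT.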

Additional observations from a re-analysis of the deposited data

Results flagged for a closer look

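The ERCC spike-ins, synthetic RNAs outside the gene comparisons, held 0.650% of listed reads in HET and 0.00669% in WT. Directions given for the 9 genes are relative to gene reads and not to the spike-ins, and the part of this difference in any gene's ratio was not tested.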

How the results depend on the processing

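For each of the 9 genes, 6 alternatives (total-count, DESeq2 and upper-quartile scaling, prior counts of 2 and 0, and thinning of WT) kept the direction of the ratio, and all 54 values stayed within the counting intervals. The number of the 9 genes called higher was 0 throughout. The number called lower was 0 with a minimum of 500 reads, with a 2-fold limit and with WT thinned, since Glra3 then missed the minimum or the limit. Over all genes, no minimum gave 1379 higher and 1353 lower, 20 reads gave 1321 and 1353, 500 reads gave 158 and 348, a 2-fold limit gave 166 and 267, and total-count scaling gave 952 and 919, against 792 higher and 1087 lower. The excess of lower calls thus became a slight excess of higher calls with no minimum and with total-count scaling. The log2 ratio of summed reads of the 9 genes was 0.06 (0.02 to 0.09) and became 0.11 with total-count and 0.10 with upper-quartile scaling. The 99% interval of the Gad1 to Gad2 difference (log2 0.24) ran from -0.03 to 0.51 and included equal ratios. Deposited RPKM gave the same balances by construction. The alternatives for lists of other inhibitory genes were not run. No paired analysis was possible because there is 1 library per genotype, and no replicate could be left out.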
